A study of Sus scrofa with 40 samples.

Results

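The genes described here are 6 ubiquitin ligases of striated muscle: FBXO32 (also called atrogin-1), FBXO40, TRIM63 (MuRF1), TRIM54 (MuRF3), TRIM55 (MuRF2) and NEDD4. They were taken by symbol from a deposited table of 21280 pig genes, in which each symbol stood on 1 row, and all 6 were among the 11713 genes that passed the filter on low counts. The table holds RNA sequencing counts for 40 libraries, 10 from each of 4 meat cuts of Chalu black pigs: longissimus dorsi of the back (LDM), hamstring (HM), the trapezius (TM), a muscle of the neck and shoulder, and pork belly (PB). All libraries came from male pigs with 1 common sire, kept under the same conditions, fasted for 24 hours before slaughter and sampled on the left side within 45 minutes of death, per the labels' protocols. The pigs' ages are not in the labels, no cut is named as a control, and the labels number the libraries of each cut from 1 to 10 without tying a number to a pig, so the p-values measure the spread between libraries, which may be partly technical.

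Ubiquitin ligases pick the proteins that are tagged with ubiquitin, a small protein whose chains send a target to the proteasome. FBXO32 and FBXO40 are F-box proteins, which bring substrates to the SCF complex built on SKP1, CUL1 and RBX1, whereas the 3 TRIM proteins are RING ligases of the sarcomere and microtubules and NEDD4 is a HECT ligase, which carries the ubiquitin itself before passing it on. FBXO32 and TRIM63 are the best known of them, because their transcripts rise in muscle that wastes through fasting, disuse or disease.

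Total counts per library ran from 12305913 to 17735722, and the least read member, NEDD4, still had 71 counts in its lowest library. The skeletal actin gene ACTA1 was at 41041 to 96776 CPM (counts scaled to library size, here without TMM normalization) and the skin keratin KRT5 was at 0 in 39 of 40 libraries. The CPM of the ligases is given after TMM normalization. The mean share of counts from mitochondrially encoded genes ran from 4.97% in LDM to 12.5% in PB. The library titled PB1 carries a tissue field that names the longissimus. By its values it lay nearest to the other PB libraries, and it stayed in that group. The libraries HM9, TM3, TM6 and TM7 lay nearer to the mean of another cut than to their own. HM9 and TM7 lay nearest to LDM, TM3 to HM and TM6 to PB. Differences between cuts that changed without them are given with and without them. Relations within cuts were not run again without these libraries as a set.

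Per length, the most abundant of the 6 transcripts was TRIM63, at a mean of 432 ± 222 FPKM (counts scaled by gene length and library total, mean ± SD over 40 libraries). TRIM54 followed at 211 ± 84.1 FPKM and FBXO32 at 107 ± 60.8 FPKM. FBXO40 had a mean of 52.4 ± 26.0 FPKM. These 4 are the members with the higher levels. TRIM55 stood at 12.8 ± 8.57 FPKM and NEDD4 at 6.32 ± 5.22 FPKM.

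The less abundant pair, NEDD4 and TRIM55, differed among the cuts, and they did so in different patterns. NEDD4 was higher in PB and LDM than in HM and TM, while TRIM55 was highest in HM. By the F test of edgeR's quasi-likelihood fit, 2 of the 6 members passed an adjusted p of 0.05 (Benjamini-Hochberg over all genes tested), beside 57.2% of all genes tested, and the adjusted p was 6.41e-05 for NEDD4 and 0.000783 for TRIM55. The other 4 had adjusted p-values of 0.0577 (FBXO40), 0.539 (TRIM63), 0.658 (TRIM54) and 0.724 (FBXO32). The cut held 53.4% of the variance of log2 CPM for NEDD4, 36.6% for TRIM55 and 16.6% for FBXO40, but 8.10% for TRIM63, 5.84% for FBXO32 and 4.06% for TRIM54.

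**Figure D1:**
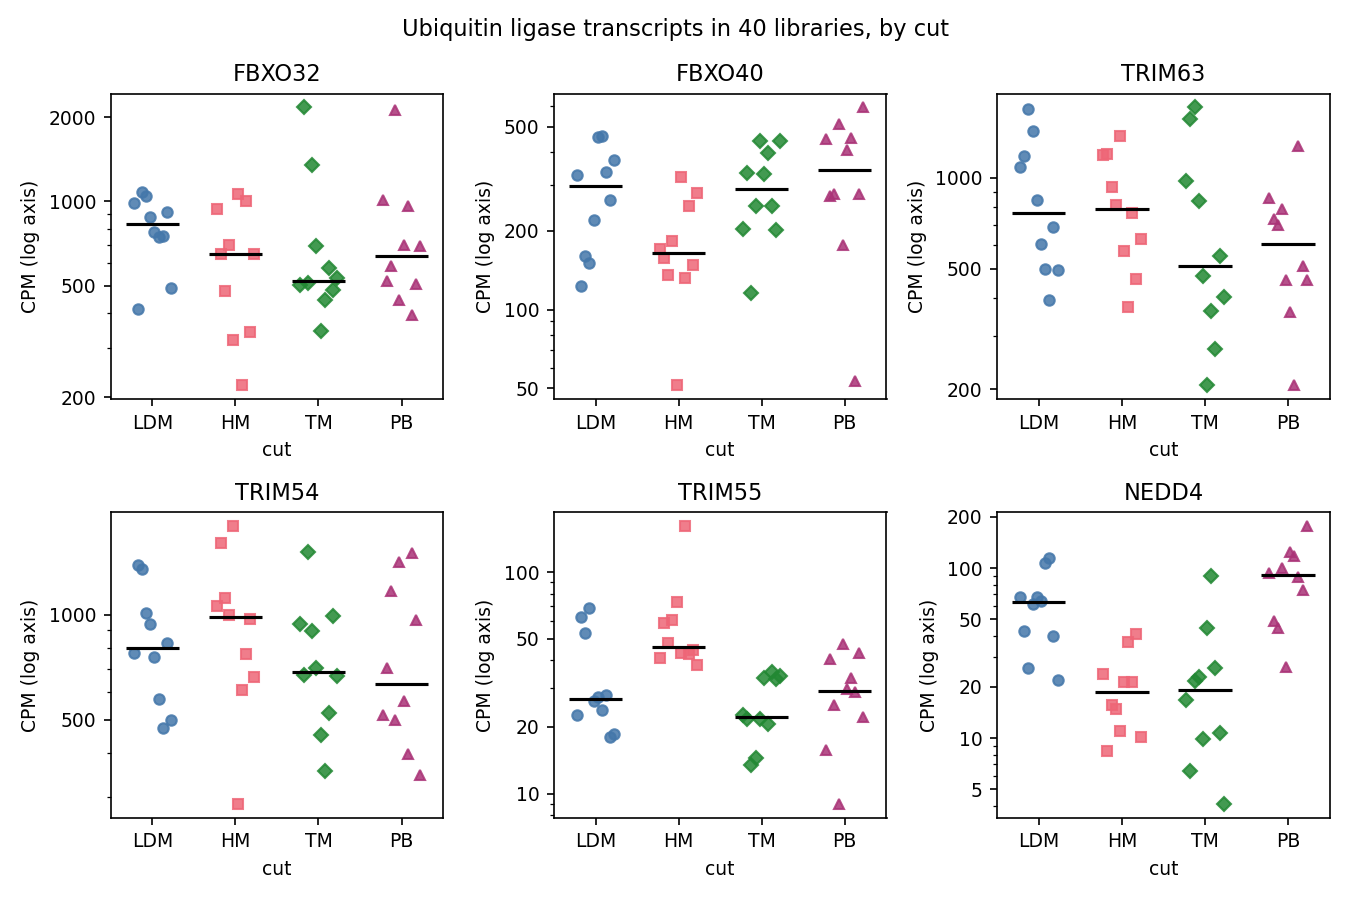
CPM of each ligase transcript on a log axis, with 1 point per library, the 4 cuts side by side (10 libraries each) and a bar at each median. NEDD4 lies low in HM and TM, TRIM55 lies high in HM, and the points of FBXO32, TRIM63 and TRIM54 overlap across all cuts.

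Over the 6 pairs of cuts, 8 of the 36 member comparisons passed the adjusted p of 0.05. In PB against HM 3 of 6 members passed, where 27.6% of all genes tested did, and in HM against LDM 2 of 6 passed, where 32.5% did. In TM against LDM 1 of 6 passed, beside 24.7% of all genes, and in PB against TM 1 of 6, beside 23.1%. In PB against LDM 0 of 6 passed the edgeR test, at an unadjusted p under 0.05 as well as after adjustment, and 0 passed by DESeq2 or limma-voom, while 41.7% of all genes did. In TM against HM 1 of 6 passed, and there 0.768% of all genes tested did. That share rests on 90 genes, a number that ran from 52 without TM2 or TM4 to 312 with limma-voom, and the member's call was lost without HM7. The median log2 change over the 6 members was -0.06 in PB against LDM, -0.22 in HM against LDM and -0.22 in TM against LDM, beside -0.02, 0.08 and 0.04 over all genes tested. It was 0.01 in PB against HM, 0.15 in PB against TM and 0.04 in TM against HM, beside -0.05, -0.06 and -0.02.

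**Figure D2:**
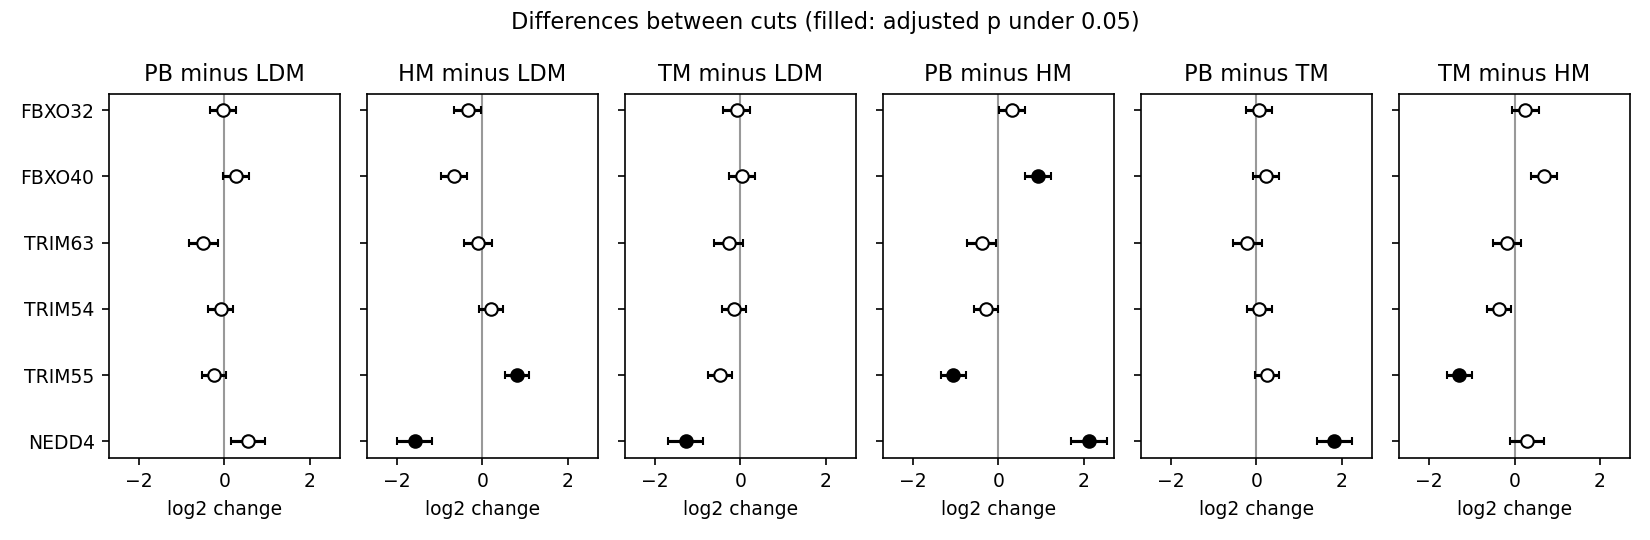
Log2 change of each ligase in the 6 pairs of cuts, with bars of 1 SE of the fit; filled points passed an adjusted p of 0.05 and the line marks 0. NEDD4 holds 4 of the 8 filled points, TRIM55 holds 3 and FBXO40 holds 1.

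FBXO32, the F-box protein that targets MyoD and the translation factor eIF3f for degradation, lies on chromosome 4 of Sscrofa11.1 at 15895351 to 15930940 on the plus strand. In LDM it ran from 412 to 1081 CPM with a median of 828.8, and in HM from 220 to 1065 with a median of 650. In TM it ran from 344 to 2166 CPM with a median of 521, and in PB from 392 to 2120 with a median of 640. The 4 ranges overlapped, and 3 libraries, TM2, TM4 and PB4, lay above every LDM and HM library. The means followed the order LDM, PB, TM, HM, and no neighbours in that order differed past the threshold. The largest difference, HM against LDM, was -0.35 ± 0.31 (log2 change ± SE, adjusted p = 0.407).

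FBXO40, an F-box protein of skeletal and cardiac muscle that is known to target the insulin receptor substrate IRS1, lies on chromosome 13 at 138881513 to 138905356 on the minus strand. In HM it ran from 51.3 to 321 CPM with a median of 164, the lowest of the cuts. The medians were 289 CPM in TM (range 116 to 442), 296 in LDM (123 to 462) and 341 in PB (53.5 to 592). All ranges overlapped, but 9 of 10 PB libraries and 9 of 10 TM libraries lay above the HM median. In PB the transcript was 1.90-fold higher than in HM (log2 change 0.92 ± 0.31, adjusted p = 0.0213). TM against HM gave 0.70 ± 0.31 (adjusted p = 0.312) and HM against LDM -0.65 ± 0.31 (adjusted p = 0.0956), neither past the threshold. In the order of means, PB, TM, LDM, HM, only the ends thus differed. Without PB10, the library with the highest value, the adjusted p of PB against HM was 0.0521. The F test among the cuts, at 0.0577 by edgeR, passed with the DESeq2 test (adjusted p = 0.0292), limma-voom (0.00414) and 3 other alternatives. The whole gene lies inside HCLS1, a gene of blood cells on the opposite strand, over 23844 bases, and how reads were counted by strand is unknown here. HCLS1 was far lower, at a median of 0.927 FPKM beside 49.7 FPKM for FBXO40, and the correlation of the pair with cut means removed was -0.73 over the 40 libraries.

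TRIM63, which binds titin at the M-line and ubiquitinates thick filament proteins, lies on chromosome 6 at 83492633 to 83507499 on the minus strand. It ran from 395 to 1697 CPM in LDM (median 766) and from 373 to 1378 in HM (median 791). In TM it ran from 206 to 1711 CPM (median 512) and in PB from 207 to 1272 (median 604). The TM libraries spread over 8.31-fold, more than the distance between any medians. PB against LDM, the ends of the order LDM, HM, TM, PB, differed by -0.49 ± 0.34 on the log2 scale (adjusted p = 0.245), which did not pass.

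TRIM54, a family member that associates with microtubules and the Z-disc, lies on chromosome 3 at 111834151 to 111852745 on the minus strand. Its medians were 802 CPM in LDM (range 473 to 1383), 983 in HM (287 to 1795), 686 in TM (357 to 1507) and 634 in PB (347 to 1505). These ranges lay almost on top of each other, and the largest difference, TM against HM, was -0.36 ± 0.28 (adjusted p = 0.648). The last 1513 bases of the gene overlap MPV17, a gene for an inner mitochondrial membrane protein on the opposite strand. MPV17 had a median of 26.1 CPM (without TMM normalization), and its correlation with TRIM54 was 0.92 with cut means removed. The gene BAG3 on chromosome 14 reached 0.93 with TRIM54 by the same measure. How reads were counted by strand is unknown here, so reads shared between TRIM54 and MPV17 cannot be told apart.

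TRIM55, the third MuRF protein, which links titin and microtubules and is known from the nascent sarcomere, lies on chromosome 4 at 68487109 to 68530889 on the minus strand. In HM it ran from 38.2 to 161.6 CPM with a median of 46.0, and in LDM from 17.96 to 68.5 with a median of 26.8. In TM it ran from 13.5 to 35.2 CPM with a median of 22.1, and in PB from 8.98 to 47.5 with a median of 29.2. All 10 HM libraries lay above all 10 TM libraries, the only 1 of the 36 member comparisons in which the ranges were separate. All 10 HM libraries also lay above the LDM median, although the LDM libraries 2, 3 and 4, at 62.9, 53.0 and 68.5 CPM, reached into the HM range.

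TRIM55 was 2.45-fold lower in TM than in HM (log2 change -1.29 ± 0.29, adjusted p = 0.0153). It was lower in PB than in HM by 2.08-fold (-1.05 ± 0.28, adjusted p = 0.00494) and higher in HM than in LDM by 1.75-fold (0.81 ± 0.28, adjusted p = 0.0254). In the order of means, HM, LDM, PB, TM, the steps from LDM to PB (adjusted p = 0.515) and from PB to TM (0.578) did not pass. HM7 was the highest library of all at 161.6 CPM, with the next at 73.4 CPM. Without it, TM against HM was -1.01 (adjusted p = 0.0665) and HM against LDM was 0.52 (adjusted p = 0.125). HM against LDM also missed the threshold without LDM5, LDM7 or LDM9, at adjusted p-values of 0.0572, 0.0622 and 0.0666. PB against HM kept its call whichever library was left out.

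NEDD4, a HECT ligase with WW domains that acts on membrane receptors, channels and signalling proteins, lies on chromosome 1 at 115941937 to 116070317 on the plus strand. In PB it ran from 26.1 to 177 CPM with a median of 91.0, and in LDM from 22.1 to 114 with a median of 62.8. In HM it ran from 8.40 to 41.1 CPM with a median of 18.5, and in TM from 4.10 to 89.3 with a median of 19.2. Each of the 10 PB libraries lay above the medians of HM and TM, and 9 of them lay above every HM library. No HM library reached the LDM median and 1 TM library, TM7, did.

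NEDD4 was 4.37-fold higher in PB than in HM (log2 change 2.13 ± 0.42, adjusted p = 0.000209, PB the higher in 98 of 100 pairs of libraries). PB exceeded TM by 3.55-fold (1.83 ± 0.41, adjusted p = 0.00126, 94 of 100 pairs). LDM exceeded HM by 2.995-fold (HM against LDM -1.58 ± 0.41, adjusted p = 0.00311) and TM by 2.43-fold (TM against LDM -1.28 ± 0.41, adjusted p = 0.0179). The cuts thus ordered as PB, LDM, TM, HM, and the neighbours PB and LDM (0.55 ± 0.40, adjusted p = 0.282) and TM and HM (0.30 ± 0.40, adjusted p = 0.806) did not differ past the threshold.

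The TM7 library had the highest NEDD4 of TM, at 89.3 CPM, beside 44.1 CPM in the next TM library. Without it, TM against LDM was -1.75 (adjusted p = 0.000712), PB against TM was 2.35 and TM against HM turned to -0.18, still not past the threshold. Without the 4 libraries that lay nearer to another cut, TM against LDM was -2.14 and PB against TM 2.71. TM7 was also the TM library with the least slow fibre transcript, 8948 CPM over 10 genes led by the slow myosin MYH7, and the most fast fibre transcript, 54184 CPM over 9 genes. Over genes that differed, each centred on its mean, TM7 had r = 0.51 with the LDM mean. With the mean of the other TM libraries its r was -0.38.

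The fibre markers moved with NEDD4 inside the cuts too, in relations added after the values were seen. Between the libraries of TM, NEDD4 fell as the slow fibre sum rose (Pearson r = -0.91, permutation p = 8.0e-05, Spearman rho = -0.85, p = 0.00272, adjusted p = 0.00384 over 48 relations of the 6 members with slow and fast fibre sums, r = -0.83 without the 2 farthest libraries). In HM r was -0.84 (p = 0.00231, rho = -0.78, p = 0.0101, adjusted p = 0.0277, -0.84 without the 2 farthest, all by permutation test). In PB r was -0.72 (permutation p = 0.0185, rho = -0.77, p = 0.0122, adjusted p = 0.111, -0.66 without the 2 farthest), which did not pass. LDM gave r = -0.62 (permutation p = 0.0536, rho = -0.54, p = 0.114, adjusted p = 0.234), which rests on 2 libraries, since r was -0.10 without the 2 farthest. The sign was negative in all 4 cuts. By r the relation passed in TM and HM. By rho it passed in TM (adjusted p = 0.0435 by permutation test) but not in HM (0.0812).

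Across the cuts the slow fibre sum had medians of 15139 CPM in LDM, 50733 in PB, 46906 in HM and 55958 in TM. The part of the fibre types in the NEDD4 differences between cuts was not tested. The fast fibre sum, with medians of 69339 CPM in LDM, 36526 in PB, 33463 in HM and 26117 in TM, rose with NEDD4 in PB (r = 0.86, permutation p = 0.00160, rho = 0.88, p = 0.00157, adjusted p = 0.0277, 0.85 without the 2 farthest). It did not pass in HM and TM (r = 0.78 in each, adjusted p = 0.0718 by permutation test) or in LDM, where r was -0.35 (adjusted p = 0.733). Of the other members only TRIM63 in HM passed by r, rising with the slow fibre sum (r = 0.85, permutation p = 0.00228, rho = 0.90, p = 0.000730, adjusted p = 0.0277, 0.87 without the 2 farthest). TRIM54 in HM passed with the slow fibre sum by rho (0.84, adjusted p = 0.0485 by permutation test), but not by r (0.67, adjusted p = 0.172). TRIM63 had r of 0.24 with that sum in LDM and in TM and -0.16 in PB. In bulk muscle, fewer fibres of a type and less transcript per fibre cannot be told apart.

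Markers of other cells also differed between cuts where NEDD4 and TRIM55 did. All 5 endothelial genes led by PECAM1 differed by the F test, with summed medians of 332 CPM in LDM (range 267 to 405), 606 in HM (329 to 878), 524 in TM (255 to 733) and 346 in PB (241 to 648). All 5 smooth muscle and pericyte genes led by MYH11 also differed, with 452 CPM in LDM (290 to 701), 681 in HM (458 to 5025), 634 in TM (380 to 1438) and 443 in PB (221 to 734). The 5025 CPM is HM6 alone, with the next HM library at 1102 CPM. HM6 also had the highest fibroblast sum of HM, 2228 CPM. Among HM libraries it had the highest FBXO32 and FBXO40 and the lowest TRIM54. Of 5 leukocyte genes led by PTPRC, 4 were tested and 1 differed, and of 5 fibroblast genes led by COL1A1 1 differed. The 4 tested genes of an adipocyte list led by ADIPOQ did not pass. Of 4 tested Schwann cell genes 2 differed, with summed medians of 175 CPM in LDM, 88.2 in PB, 129.8 in HM and 119.9 in TM. Of 2 tested skin genes 1 differed, TP63, named after its value was seen, with list medians of 31.8 CPM in LDM, 16.1 in PB, 15.1 in TM and 11.11 in HM. Outside the skin list, whose KRT5 was at 0 in LDM, TM and PB, none of these genes was at 0 in a whole cut, and the part of these cells and of the fibre types in the ligase values was not tested.

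**Figure D3:**
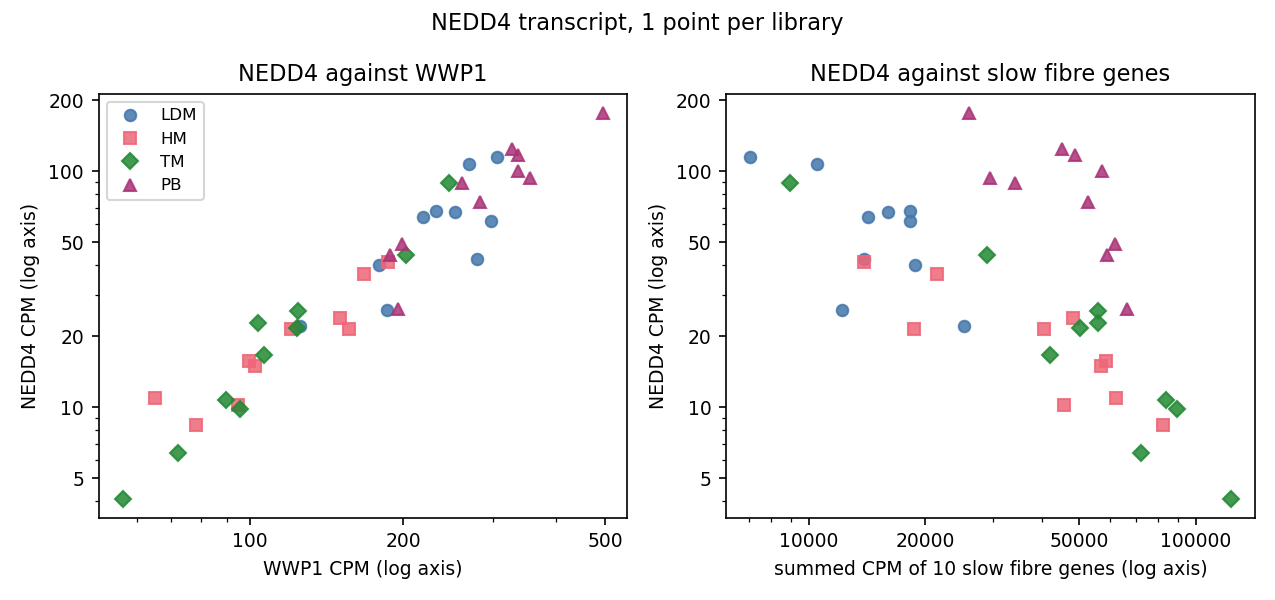
NEDD4 CPM against WWP1 CPM (left) and against the summed CPM of 10 slow fibre genes (right), log axes, 1 point per library and a marker for each cut. The points follow a line against WWP1 in all cuts, while against the slow fibre sum the PB points lie above those of HM and TM.

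The genes most like NEDD4 included its own family. By Pearson correlation of log2 CPM over the 40 libraries, which share the difference between cuts, the nearest was WWP1, another HECT ligase of the NEDD4 family (r = 0.96, and from 0.81 to 0.98 within single cuts). AFTPH, a clathrin accessory protein, was also among the nearest, at 0.93. WWP1, too, was higher in PB and LDM than in HM and TM, at 298 ± 94.3 CPM in PB and 235 ± 58.0 in LDM beside 122 ± 41.0 in HM and 122 ± 58.9 in TM (mean ± SD, n = 10). WWP1 lies on chromosome 4 and NEDD4 on chromosome 1. NEDD4L, a family member that acts on the epithelial sodium channel, was at 121 ± 35.0 CPM in LDM, 48.1 ± 20.5 in PB, 43.2 ± 20.1 in HM and 40.04 ± 26.1 in TM (PB against LDM -1.33 ± 0.31, adjusted p = 0.000669 by edgeR). Of the other family members listed, WWP2 was higher in HM and in TM than in LDM (0.42 ± 0.14 and 0.40 ± 0.14, adjusted p = 0.0225 and 0.0351 by edgeR). SMURF2 was higher in PB than in LDM (0.53 ± 0.16, adjusted p = 0.00943 by edgeR), and ITCH did not pass the F test (adjusted p = 0.0626).

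Few relations between members passed within a cut. Of 60, 15 pairs of members in each of 4 cuts, 2 passed by Pearson's r after adjustment and 6 by Spearman's rho, and 24 of the 60 had a positive r. TRIM63 and TRIM54 rose together in LDM (r = 0.90, permutation p = 0.000460, rho = 0.93, p = 0.000380, adjusted p = 0.0138, 0.82 without the 2 farthest libraries), and in the other cuts r ran from 0.46 to 0.75 (in HM rho = 0.89 passed, adjusted p = 0.0167 by permutation test). FBXO40 fell as TRIM54 rose in PB (r = -0.85, permutation p = 2.0e-05, rho = -0.94, p = 0.000220, adjusted p = 0.00120, -0.91 without the 2 farthest). In the other cuts that r was -0.85 (LDM, adjusted p = 0.0508 for r and 0.0167 for rho by permutation test), -0.76 (TM) and -0.73 (HM), with the same sign in all 4.

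FBXO32 and TRIM63, the pair known for rising together in wasting, had r of 0.58 in TM, 0.34 in LDM, 0.32 in HM and -0.11 in PB, none of them past the threshold by r or rho. Without the 2 farthest libraries r was 0.96 in LDM and 0.28 in TM, so it rests on few libraries there. FBXO32 went with FBXO40 by rho in HM (0.89, adjusted p = 0.0167 by permutation test) and in PB (0.85, adjusted p = 0.0312), where r was 0.70 and 0.69 (adjusted p = 0.0822 and 0.138). In TM that r was 0.11, and in LDM it was -0.00, or -0.84 without the 2 farthest libraries. The library with the highest FBXO32, TM2 at 2166 CPM, was high in TRIM63 too at 1570 CPM, whereas PB4, at 2120 CPM of FBXO32, had 787 CPM of TRIM63. TM3, the TM library with the highest TRIM63 and TRIM54, at 1711 and 1507 CPM, had 510 CPM of FBXO32.

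**Figure D4:**
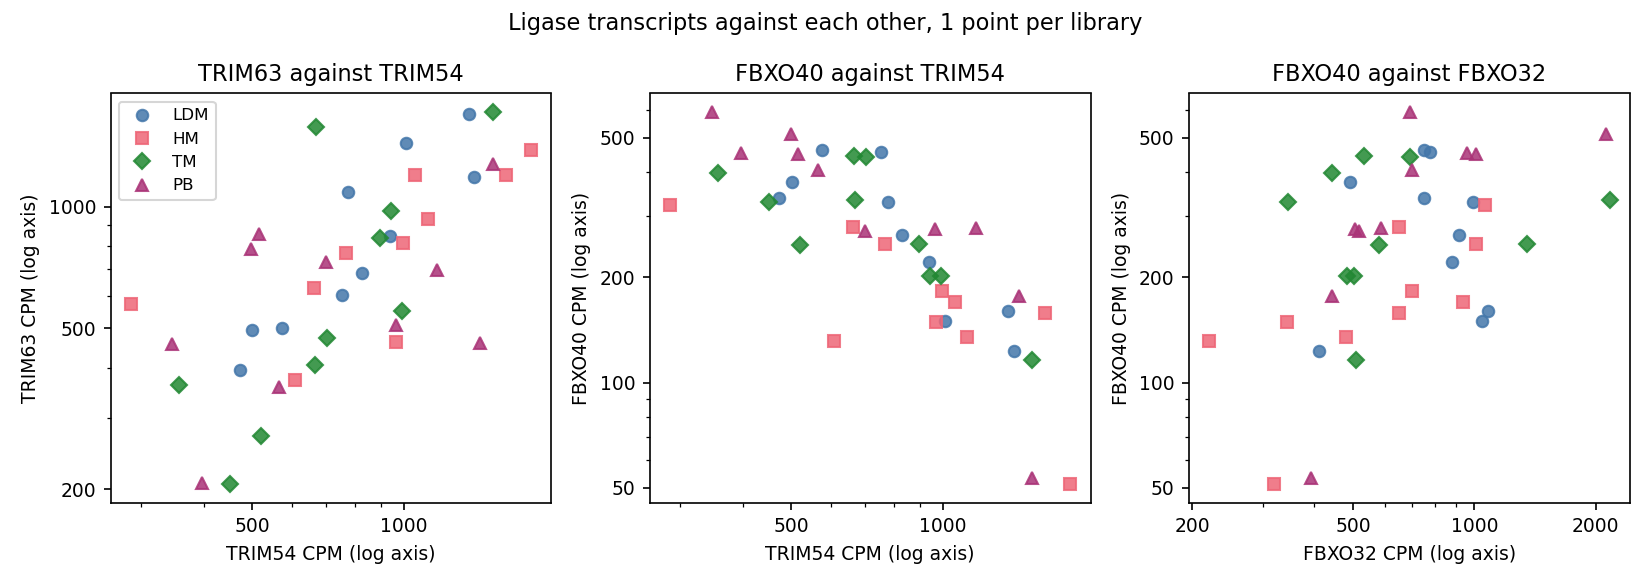
CPM of pairs of ligases on log axes, 1 point per library: TRIM63 against TRIM54 (left), FBXO40 against TRIM54 (centre) and FBXO40 against FBXO32 (right). The left cloud rises (r = 0.66 with cut means removed, over 40 libraries), the centre cloud falls (-0.79) and the right cloud rises weakly (0.44).

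Among all tested genes with a symbol, those nearest to TRIM54 over the 40 libraries were BAG3, a co-chaperone of the Z-disc (r = 0.92), KLHL40, a substrate adaptor of CUL3 ligases that stabilises thin filament proteins (0.91), and AMPD3, an AMP deaminase (0.90). BAG3 held r between 0.91 and 0.96 within each cut. TRIM63 was nearest to IP6K3, an inositol hexakisphosphate kinase of muscle (0.81), the diacylglycerol kinase gene DGKD (0.81) and MED15 (0.76). FBXO32 had no likeness above 0.69, that with KLHL38, a muscle gene 93885 bases away on chromosome 4. FBXO40 was also like KLHL38, at 0.78 over all libraries and 0.83 with cut means removed. TRIM55 was nearest to DLGAP4 (0.76), TNRC6C (0.75) and PALLD (0.70), and with cut means removed to MEF2C, a transcription factor of muscle (0.81). Not all of these held within each cut. Within single cuts r ran from 0.13 to 0.83 for KLHL38 with FBXO32 and from 0.08 to 0.91 for DLGAP4 with TRIM55. For MED15 with TRIM63 it ran from 0.38 to 0.92.

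The genes around these ligases were described by lists chosen from knowledge of the pathway. In a list of other muscle ubiquitin ligases 28 of 36 tested genes passed the F test, and in a list of the SCF complex, ubiquitin, E1 and E2 enzymes 20 of 25 did. Among deubiquitinases 13 of 15 passed. Among the upstream regulators of FBXO32 and TRIM63, such as FoxO factors, the glucocorticoid receptor and insulin signalling, 13 of 30 passed. Of 29 other atrophy and FoxO response genes 17 passed. Among 27 reported substrates and partners 17 passed. These shares stand beside the 57.2% of all genes tested, and whether any list departs from it was not tested.

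**Figure D5:**
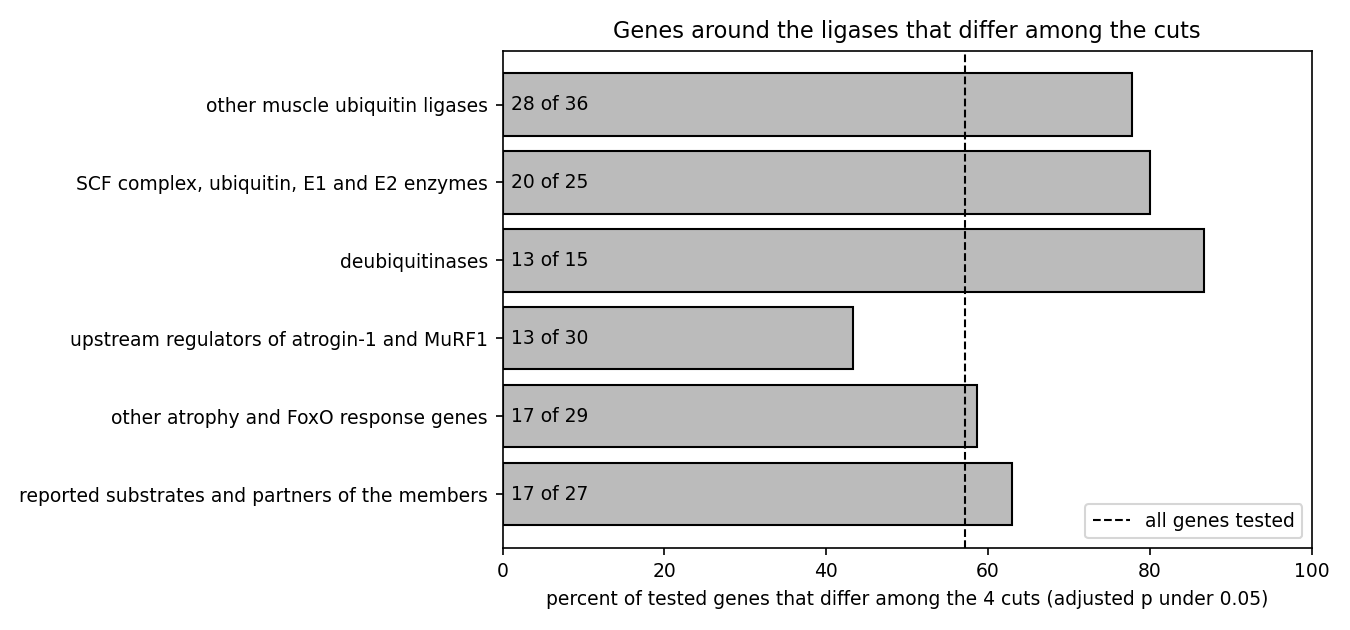
Percent of the tested genes of each list that differed among the 4 cuts by the F test (adjusted p under 0.05), with the count written in each bar and a dashed line at the 57.2% of all genes tested. The 3 lists of ubiquitin machinery lie to the right of the line and the upstream regulators to the left.

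In the ligase list, PB had 13 higher and 3 lower genes against TM and 9 higher and 5 lower against HM, with median log2 changes of 0.31 and 0.15 beside -0.06 and -0.05 over all genes. Over all genes PB had 1571 higher and 1135 lower against TM and 1583 higher and 1649 lower against HM. Against TM 58.1% were higher, beside 47.3% with upper-quartile scaling and 71.3% with mitochondrial genes taken out. Against HM 49.0% were higher, beside 45.7% and 63.0% under the same settings. TRIM24, a bromodomain protein and ligase for p53, was highest in PB at 66.6 ± 25.2 CPM, beside 35.5 ± 14.4 in HM, 30.7 ± 7.92 in TM and 21.6 ± 8.82 in LDM (PB against LDM 1.62 ± 0.23, adjusted p = 6.07e-07). SMURF1, a HECT ligase of SMAD signalling, was higher in HM at 9.01 ± 1.75 CPM and TM at 7.78 ± 1.36 than in LDM at 5.85 ± 1.02 and PB at 5.07 ± 1.38. It belongs to the NEDD4 family as well, and it was high in the cuts where NEDD4 was low (PB against HM -0.83 ± 0.15, adjusted p = 5.54e-05 by edgeR).

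In the SCF and E2 list, LDM was the higher side for most genes that passed: 12 were lower and 4 higher in PB against LDM, 8 lower and 1 higher in HM, and 13 lower and 0 higher in TM. Over all genes, 2483 were lower and 2397 higher in PB against LDM, 1873 lower and 1932 higher in HM, and 1573 lower and 1325 higher in TM. The median log2 changes of the list were -0.30, -0.20 and -0.39, beside -0.02, 0.08 and 0.04 over all genes. SKP1, the adaptor that F-box proteins such as FBXO32 and FBXO40 bind, was at 150 ± 15.8 CPM in LDM, 122 ± 17.4 in PB, 109 ± 20.1 in HM and 99.5 ± 12.3 in TM (TM against LDM -0.59 ± 0.10, adjusted p = 3.25e-05). The E2 enzymes UBE2J2 and UBE2E1 were also lower in PB than in LDM, by -0.68 ± 0.10 and -0.71 ± 0.14 (adjusted p = 1.33e-06 and 0.000116, edgeR). CUL3, the scaffold used by KLHL40, went with PB instead, at 106 ± 21.5 CPM there and 67.3 ± 18.6 in LDM (0.65 ± 0.17, adjusted p = 0.00204).

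Deubiquitinases remove the tags that ligases add. In PB against TM 6 of them were higher and 0 lower (median 0.21 on the log2 scale, beside -0.06 over all genes, of which 58.1% of those that passed were higher), while PB against LDM had 6 in each direction (median 0.17 beside -0.02). Of all genes that passed in PB against LDM, 49.1% were higher. USP25 was at 330 ± 83.7 CPM in PB, beside 122 ± 34.1 in LDM, 94.2 ± 33.0 in HM and 111 ± 42.7 in TM (PB against LDM 1.43 ± 0.22, adjusted p = 2.14e-06). USP15 was likewise higher in PB, at 40.04 ± 5.58 CPM beside 15.8 ± 5.80 in LDM (1.34 ± 0.21, adjusted p = 3.40e-06). USP7 and OTUB1 had their highest levels in LDM, at 293 ± 85.8 and 30.8 ± 6.83 CPM, and were lower in PB by -0.45 ± 0.12 and -0.58 ± 0.12 (adjusted p = 0.00226 and 0.000233, edgeR).

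Among the regulators 5 were higher and 5 lower in HM than in LDM (median log2 change 0.02 beside 0.08 over all genes). Of all genes that passed in that contrast, 50.8% were higher. FOXO1, FOXO3, FOXO4 and KLF15, which drive FBXO32 and TRIM63 in wasting muscle, did not pass the F test, and neither did NFKB1, RELA or STAT3. FOXO6 did pass and was lower in PB and in HM than in LDM (-0.997 ± 0.28 and -0.93 ± 0.28, adjusted p = 0.00444 and 0.00984 by edgeR). The glucocorticoid receptor NR3C1 also passed and was higher in PB than in LDM (0.41 ± 0.16, adjusted p = 0.0343). The myostatin gene MSTN was low in all cuts and lowest in TM, at 0.511 ± 0.214 CPM beside 2.22 ± 2.30 in LDM (-2.12 ± 0.42, adjusted p = 0.000286). The stress factor ATF4 was higher in LDM, at 2299 ± 589 CPM beside 1393 ± 325 in HM (-0.72 ± 0.14, adjusted p = 0.000190). The insulin signalling gene IRS1, whose protein FBXO40 targets, was at 148 ± 100.4 CPM in LDM, 92.2 ± 41.2 in PB, 65.5 ± 33.1 in TM and 44.0 ± 18.7 in HM. Its lowest level was in HM, at -1.75 ± 0.35 against LDM (adjusted p = 0.000219 by edgeR). FBXO40 was lowest in HM too, but its means ordered as PB, TM, LDM, HM. Its own difference in HM against LDM did not pass (adjusted p = 0.0956 by edgeR). Both are transcript levels, and a link between them was not tested. The insulin receptor INSR was highest in TM, at 54.1 ± 28.1 CPM beside 26.2 ± 8.20 in LDM (1.05 ± 0.26, adjusted p = 0.00293).

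Of the atrophy and FoxO response genes 9 were lower and 1 higher in HM than in LDM (median log2 change -0.10 beside 0.08 over all genes). Over all genes 1873 were lower and 1932 higher in that contrast. Of the listed genes that passed the F test, the 3 with the smallest adjusted p had their highest mean in LDM. The autophagy receptor SQSTM1, also listed as a partner of the MuRF proteins, was at 1791 ± 556 CPM in LDM and 802 ± 116 in PB (-1.16 ± 0.14, adjusted p = 5.32e-08). MAP1LC3A, a protein of the autophagosome, was at 124 ± 32.5 CPM in LDM and 75.2 ± 8.41 in HM (-0.72 ± 0.15, adjusted p = 0.000273). ZFAND5, a zinc finger protein that binds ubiquitin and the proteasome, was at 940 ± 150 CPM in LDM and between 618 and 642 in the other cuts. The translation repressor EIF4EBP1 had its lowest level in HM, at 20.6 ± 3.68 CPM beside 35.0 ± 8.47 in LDM (-0.76 ± 0.15, adjusted p = 0.000218).

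Of the reported substrates and partners, 11 were lower and 4 higher in PB than in LDM (median log2 change -0.29 beside -0.02 over all genes). Over all genes 2483 were lower and 2397 higher in that contrast. The 3 named thick filament genes went with their fibre type. MYBPC1, the slow myosin-binding protein C, was at 2321 ± 380 CPM in LDM and 8778 ± 1846 in PB (1.92 ± 0.16, adjusted p = 1.07e-11), and the slow light chain MYL2 was 1.95 ± 0.32 higher in PB than in LDM on the log2 scale (adjusted p = 7.75e-06). MYBPC2, the fast form, was lower in PB than in LDM by -1.14 ± 0.25 (adjusted p = 0.000415, edgeR). In the same contrast TRIM63, the ligase for thick filament proteins, did not pass at -0.49 ± 0.34. MYOD1, EIF3F and DES, reported targets of FBXO32 and TRIM63 proteins, did not pass the F test.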

How the data were processed

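Per the file headers, the deposited table lists 21280 Ensembl genes and, for each of the 40 libraries, raw counts of reads beside FPKM values computed by the authors. Per the labels' protocols, RNA was extracted with Trizol and libraries were made with a stranded KAPA kit. Tools listed in the submitters' processing notes are HTSeq 0.9.1, HISAT2 2.0.5 and cutadapt 1.15, on build Sscrofa11.1. Their settings, including that for strand, are not given in the sources used here. The deposited FPKM values equal count over gene length and library total for 100% of counts above 0 (relative tolerance 0.001), so they were used only to compare levels between genes. Coordinates are those of the deposited table.

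Libraries were grouped by title. The test was edgeR 4.0.16 (R 4.3.3), with TMM scaling, filterByExpr by cut (11713 genes kept), robust quasi-likelihood dispersion over the 40 libraries and cut as the only factor, contrasts for 6 pairs, an F test among the 4 cuts, and Benjamini-Hochberg adjustment over all genes tested with a threshold of 0.05. An SE is that of the fit. CPM values are TMM-scaled, except those of ACTA1 and MPV17, which are scaled to library totals only. Marker genes that did not pass the filter entered the marker sums in that unscaled form. Relations between libraries used log2 CPM (prior count 2) and two-sided permutation tests with 100000 resamples. The fit was also run on simulated counts with a single dispersion for all genes, lower than that of the 6 members. That run does not show how the fit performs at their spread. Total counts of 12305913 to 17735722 make 1 count worth less than 0.1 CPM. No libraries of a cut were duplicates (lowest chi-square per gene 37.9).

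The 6 members, the gene lists and the rule for named genes were chosen with earlier results of these data known. The rule names all 6 members, the 4 genes of each pathway list with the smallest adjusted p of the F test, the 3 genes most like each member over 40 libraries and with cut means removed, and the first gene of a marker list. Not every gene that the rule names is reported here. Other list genes that are named, the libraries singled out, and relations with fibre sums were chosen after values were seen. Alternatives were DESeq2 size factors, upper-quartile scaling, the test of DESeq2 1.42.0, limma-voom (limma 3.58.1) with quality weights, other filters, the library number as a replicate block, a fit of each pair alone, mitochondrial genes taken out, PB1 left out, each library left out, and, added after seeing the data, HM9, TM3, TM6 and TM7 left out together. Listed genes that were not in the table, or did not pass the filter and are in no marker sum, are not analysed here.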

Additional observations from a re-analysis of the deposited data

Results flagged for a closer look

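Of 24 groups tested, 6 members in 4 cuts, 3 had a highest library whose gap to the next exceeded Dixon's critical value for 10 samples (0.466 of the range), and chance gives about 1 in 20 for values without skew. FBXO32 was at 2120 CPM in PB4, with the next PB library at 1010 CPM (gap over range 0.643). NEDD4 was at 89.3 CPM in TM7, with the next TM library at 44.1 CPM (0.530). TM7 also had the lowest slow fibre sum of TM, 8948 CPM, the highest fast fibre sum, 54184 CPM, and the lowest endothelial sum, 255 CPM. TRIM55 was at 161.6 CPM in HM7, with the next HM library at 73.4 CPM (0.715), while FBXO32 had its lowest value of all libraries there, 220 CPM. The part of these values in one another was not tested. On log2 CPM, a scale tried after seeing the data, the gaps of FBXO32 in PB4 (0.440) and NEDD4 in TM7 (0.231) were under the critical value, and that of TRIM55 in HM7 (0.548) was over it. On that scale the lowest FBXO40 values, in HM5 (0.515) and PB8 (0.498), exceeded it as well.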

How the results depend on the processing

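Over 11 alternatives other than leaving out single libraries, 384 of 396 values of the 36 member log2 changes kept their direction and their side of the threshold, and each of the 8 that passed did so in all of them, PB1 left out included. Left out in turn, single libraries kept 1398 of 1440 values, ended a call in 6 and turned the direction in 36, all of differences that did not pass. The number of members that passed ran from 1 to 2 in HM against LDM and from 0 to 1 in TM against HM when single libraries were left out.

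Genes that differed in TM against HM numbered 90, but 199 with the DESeq2 test, 312 with limma-voom, 213 with the replicate block and 206 without HM9, TM3, TM6 and TM7, and from 52 (without TM2 or TM4) to 135 with single libraries left out. FBXO40 passed the F test among the cuts with DESeq2 size factors (adjusted p = 0.0488), the DESeq2 test (0.0292), limma-voom (0.00414), the replicate block (0.0386) and mitochondrial genes taken out (0.0382), and without any of 10 single libraries (0.0125 to 0.0459: LDM2, LDM5, LDM7, LDM9, HM6, HM10, TM3, TM8, PB5 and PB8). FBXO40 also passed in HM against LDM with limma-voom (-0.71, adjusted p = 0.0303).

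FBXO32 in PB against LDM, -0.03, turned to 0.00022 with DESeq2 size factors, 0.00023 with the DESeq2 test, 0.00038 with no filter, 0.0059 in the fit of the pair alone and 0.045 with mitochondrial genes taken out. Without HM9, TM3, TM6 and TM7, FBXO32 turned to 0.17 in TM against LDM and -0.18 in PB against TM, and NEDD4 to -0.39 in TM against HM. With limma-voom, TRIM63 in HM against LDM turned to 0.0059, NEDD4 in TM against HM to -0.033 and TRIM54 in PB against TM to -0.21. With single libraries left out, FBXO32 ran from -0.33 to 0.062 in PB against LDM, from -0.24 to 0.39 in PB against TM and from -0.076 to 0.35 in TM against HM. TRIM63 ran from -0.22 to 0.051 in HM against LDM and from -0.39 to 0.058 in PB against TM. NEDD4 in TM against HM ran from -0.18 to 0.51, FBXO40 in TM against LDM from -0.047 to 0.14, and TRIM54 from -0.23 to 0.012 in PB against LDM and from -0.077 to 0.28 in PB against TM. The cause was not tested.

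The share of higher genes among those that passed in TM against LDM was 45.7%, and 56.9% with upper-quartile scaling. It was 49.0% in PB against HM, and 63.0% with mitochondrial genes taken out, and 58.1% in PB against TM, and 47.3% and 71.3% under the same 2 settings. Relations between members that passed numbered 2 of 60 on log2 CPM, 3 on log2 FPKM and 2 without PB1. The lowest adjusted p by permutation test was 0.00120 on log2 CPM, 0.0238 on log2 FPKM and 0.0138 without PB1. The median r was -0.23 on log2 CPM and -0.13 on log2 FPKM. The labels do not say that a library number marks a pig. Of 60 same-number pairs of libraries, 52 had a correlation of deviations over 0.1 (median 0.245, lowest -0.128). Most libraries, 28 of 40, were closest on average to their own number in the other cuts. How many would be so by chance was not tested, and values of different-number pairs are not given here. The main fit has cut as its only factor, so its p-values take no account of a shared number. With the replicate block, 3 members passed the F test, against 2 without it, and the added member was FBXO40 (adjusted p = 0.0386).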

Other observations

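Between the cuts, libraries with the same number were compared for each member, in 36 relations of log2 CPM over numbers 1 to 10. None passed after adjustment, 4 had an unadjusted permutation p under 0.05, and 30 of the 36 had a positive r. The strongest was TRIM63 in LDM and TM (r = 0.88, permutation p = 0.00142, rho = 0.87, p = 0.00227, adjusted p = 0.0511, r = 0.81 without the 2 farthest), and for TRIM63 all 6 pairs of cuts had r between 0.31 and 0.88. For TRIM54 r ran from 0.25 to 0.61, for NEDD4 from 0.03 to 0.67 and for FBXO32 from -0.39 to 0.32. TRIM55 in TM and LDM had r = -0.73 (permutation p = 0.0229, rho = -0.44, p = 0.204, adjusted p = 0.380, r = -0.72 without the 2 farthest).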
